A study of Mus musculus with 7 samples.

Results

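The genes described here are 10 transcription factor genes of the skeletal lineages and a shared partner subunit, taken by gene symbol: Sox5, Sox6, Sox9, Runx1, Runx2, Runx3, Cbfb, Sp7, Dlx5 and Msx2. They are 10 of the 42689 mouse genes to which the deposited transcripts could be matched, and all 10 were found. Sox9, Runx1, Runx2 and Runx3 rose and Sox6 fell at the cut Achilles tendon relative to the intact tendon of the opposite limb. Sox5, Cbfb and Msx2 did not pass the test, and Sp7 and Dlx5 were too low to be tested.

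SOX9 is the transcription factor that starts and maintains the cartilage cell fate, and SOX5 and SOX6, which carry no activation domain of their own, work beside it on genes of the cartilage matrix. The RUNX proteins bind DNA through the Runt domain, and CBFβ, the product of Cbfb, is the common partner that stabilises this binding. RUNX2 is required for osteoblasts and for the maturation of cartilage cells, with SP7 (osterix) acting after it in the osteoblast, while RUNX1 and RUNX3 are best known from blood and immune cells and also act in cartilage and bone. DLX5 and MSX2 are homeobox factors that respond to bone morphogenetic proteins (BMPs). Cartilage forming in injured soft tissue and its replacement by bone are the steps of heterotopic ossification. The study's design text names this abnormal tissue formation and the kinase TAK1 as its subjects.

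RNA sequencing libraries came from hindlimb tendon of mice on a C57BL/6 background, and the labels name no transgene, deleted gene or TAK1 inhibitor in any of them. The tenotomy group (n = 2) was tissue of the left leg between the gastrocnemius muscle and the heel bone, collected 3 weeks after the Achilles tendon was cut and the back was burned (a block at 60 °C for 18 s over 30% of the body surface). The contralateral group (n = 3) was the uncut tendon of the right leg of mice with the same burn and tenotomy, so these controls share the burn. The uninjured group (n = 2) came from wild-type mice with neither injury. The labels give no age or sex, tie no library of one leg to a library of the other, and do not say that libraries of a group came from separate mice, so the p-values measure the spread between these libraries, which may be technical.

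Totals ranged from 25927171 to 36725106 estimated counts per library, of which 76.4% to 81.4% fell on 5 features led by Gm42418 and Lars2. Between 4934057 and 8375626 counts were left for all other features. The 10 genes on the list of tendon genes, Scx and Tnmd among them, were all detected in each group, and their summed level was 611.9 to 925.2 CPM (counts scaled to a common library size) in contralateral, 2451 to 2452 at the tenotomy site and 1915 to 2260 in uninjured libraries. The uninjured libraries stood apart from each other. Uninjured replicate 1 was closer to the tenotomy mean than to the contralateral mean in 74.4% of the 16028 features tested and in 6 of the 8 tested genes described here. Uninjured replicate 2 was closer to the tenotomy mean in 30.0% of features and in 2 of these 8 genes. For most features the profile of uninjured replicate 1 goes against its label, which is therefore in doubt. The cause was not tested, and the uninjured means hold only if the label is right. Results that rest on the uninjured group are given with and without each of these libraries.

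The 3 Runx genes share more than the Runt domain. Each is transcribed from a distal and a proximal promoter, and the windows around the distal starts, from 250 bases before to 50 bases after the start, hold the same arrangement of the RUNX binding motif TGTGGT. The motif, searched on both strands, occurs there as a pair of its reverse complement ACCACA separated by 2 bases. The stretches below show this arrangement, whose part in the levels of the 3 genes was not tested. They are from RefSeq promoter windows (GRCm38.p6), written 5′ to 3′ on the strand of the gene, with the motif pair in capitals.
Runx1: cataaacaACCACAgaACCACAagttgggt
Runx2: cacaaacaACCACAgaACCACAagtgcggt
Runx3: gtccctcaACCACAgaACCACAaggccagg
The Runx1 stretch lies at chr16:92826025-92826054 (minus strand), with the pair 28 to 41 bases downstream of the RefSeq start and inside the 5′ untranslated exon of transcript Runx1-201. The Runx2 stretch lies at chr17:44814583-44814612 (minus strand), with the pair 23 to 36 bases downstream of the start, in the untranslated part of Runx2-202 and in the coding part annotated for Runx2-201 and Runx2-207. The Runx3 stretch lies at chr4:135120503-135120532 (plus strand), with the pair 134 to 121 bases upstream of the start and outside any annotated exon of the gene. A single TGTGGT on either strand was present in 16.8% of all 32851 promoter windows of this length, and a pair at this spacing in 7 of them (0.0213%), 3 of which are these. Only the 2-base gap that these 3 windows show was searched, so their place among the 7 is not a separate result. The windows at the proximal starts of Runx1 and Runx3 hold no TGTGGT. In all, 7 of the 10 genes have windows in the table (14 windows), and outside the Runx genes 2 windows of Sox6 hold a single motif. Sox9, Sp7 and Dlx5 have no entry. These matches describe letters only and were not tested for binding.

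The first comparison, tenotomy against contralateral tendon, sets the cut tendon beside the uncut one under the same burn. Estimated counts of all libraries entered a single quasi-likelihood model in edgeR, and a gene was called at a Benjamini-Hochberg adjusted p-value under 0.05. Of the 10 genes, 4 were called higher and 1 lower at the tenotomy site, and 8 had passed the filter on low counts. Across all 16028 features tested, 29.0% were called, 13.6% higher and 15.4% lower. The estimate of spread in this model is shared with the uninjured pair, which differed far more than other pairs. In a separate edgeR fit of only the compared groups the same 5 genes were called (adjusted p 9.91e-08 to 3.81e-05), beside 7385 called features. In the fit of all libraries, 6 of these genes had an unadjusted edgeR p-value under 0.05, Msx2 being the sixth, beside 43.3% of features. Both tenotomy libraries lay above all contralateral libraries for 5 of the genes and below them for 2, as they did for 31.9% and 31.8% of features. Runx3 passed the filter only through the tenotomy and uninjured libraries, being under its cutoff in each contralateral library, and Msx2 passed without either tenotomy library. None of the calls held when any one of the 3 contralateral or 2 tenotomy libraries was left out of the edgeR fit. The called genes then had adjusted p-values of 0.0501 to 0.127, and 0 of all features passed, while 5 or 6 of these genes kept an unadjusted p-value under 0.05. When either uninjured library was left out, the same number, 4 higher and 1 lower, was called. Beside them stood 42.9% of all features without uninjured replicate 1 and 43.5% without replicate 2.

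Sox9 (ENSMUSG00000000567.5, chr11:112782224-112787760, plus strand) was at 2.36, 1.74 and 1.42 CPM in contralateral libraries, 7.07 and 7.27 at the tenotomy site, and 4.28 and 1.62 in the uninjured libraries. Both tenotomy libraries lay above every other library, and uninjured replicate 1 lay between them and the contralateral libraries. The rise over contralateral tendon was 3.92-fold (log2 fold change 1.97, SE 0.37, edgeR adjusted p = 0.0167). It rested on 46 to 63 counts in contralateral and 218 and 260 counts in tenotomy libraries. The sample titles carry numbers in 3 series, which no label calls a batch, and only tenotomy replicate 1 is in the series of the contralateral libraries. Within that series the difference from the contralateral mean was 1.94 in log2 CPM.

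Sox6 (ENSMUSG00000051910.13, chr7:115470872-116038796, minus strand) moved the other way. It was at 15.3, 13.9 and 18.6 CPM in contralateral libraries, 4.43 and 4.63 at the tenotomy site, and 4.74 and 12.3 in uninjured replicates 1 and 2. The contralateral and tenotomy libraries did not overlap, and uninjured replicate 1 lay just above the tenotomy values. The fall was 3.52-fold (log2 fold change -1.81, SE 0.38, edgeR adjusted p = 0.0171), and tenotomy replicate 1 differed by -1.82 in log2 CPM within the shared title series. SOX6 is also a factor of skeletal muscle, where it represses genes of slow fibres, and muscle genes moved with it. All 17 of 17 listed skeletal muscle genes were lower past the threshold, beside 15.4% of all features. The summed level of the 17 was 25089 to 27651 CPM in contralateral, 2171 to 2182 in tenotomy, 2768 in uninjured replicate 1 and 18657 in uninjured replicate 2. No listed muscle gene was at 0 in any group. Adipose genes fell too. Of 8, all tested, 4 were called lower and none higher, beside 15.4% of all features called lower. Their summed level was 317 to 394 CPM in contralateral, 110 to 113 in tenotomy, 113 in uninjured replicate 1 and 311 in uninjured replicate 2. The part of muscle or adipose content in the fall of Sox6 was not tested. In bulk tissue, fewer cells of a type and less RNA per cell cannot be told apart.

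Sox5 (ENSMUSG00000041540.16, chr6:143828425-144781977, minus strand) was nearly level in estimated counts. It was at 2.70, 2.16 and 1.98 CPM in contralateral, 2.39 and 2.33 in tenotomy, and 2.16 and 2.41 in uninjured libraries. The tenotomy values lay inside the contralateral range, and edgeR gave a log2 fold change of 0.058 (SE 0.18, adjusted p = 0.837). With length-scaled TPM it was 0.48 and did not pass either (edgeR adjusted p = 0.126). Only 40.0% to 52.1% of the counts of Sox5 in a library were assigned to its 7 protein-coding transcripts out of 14, the remainder going to processed transcripts and retained introns. This share was 40.6%, 40.2% and 40.0% in contralateral, 52.1% and 50.3% in tenotomy, and 46.0% and 44.4% in uninjured libraries. An antisense gene, Sox5os1, shares 1330 exon bases with Sox5 but had at most 4 counts.

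**Figure D1:**
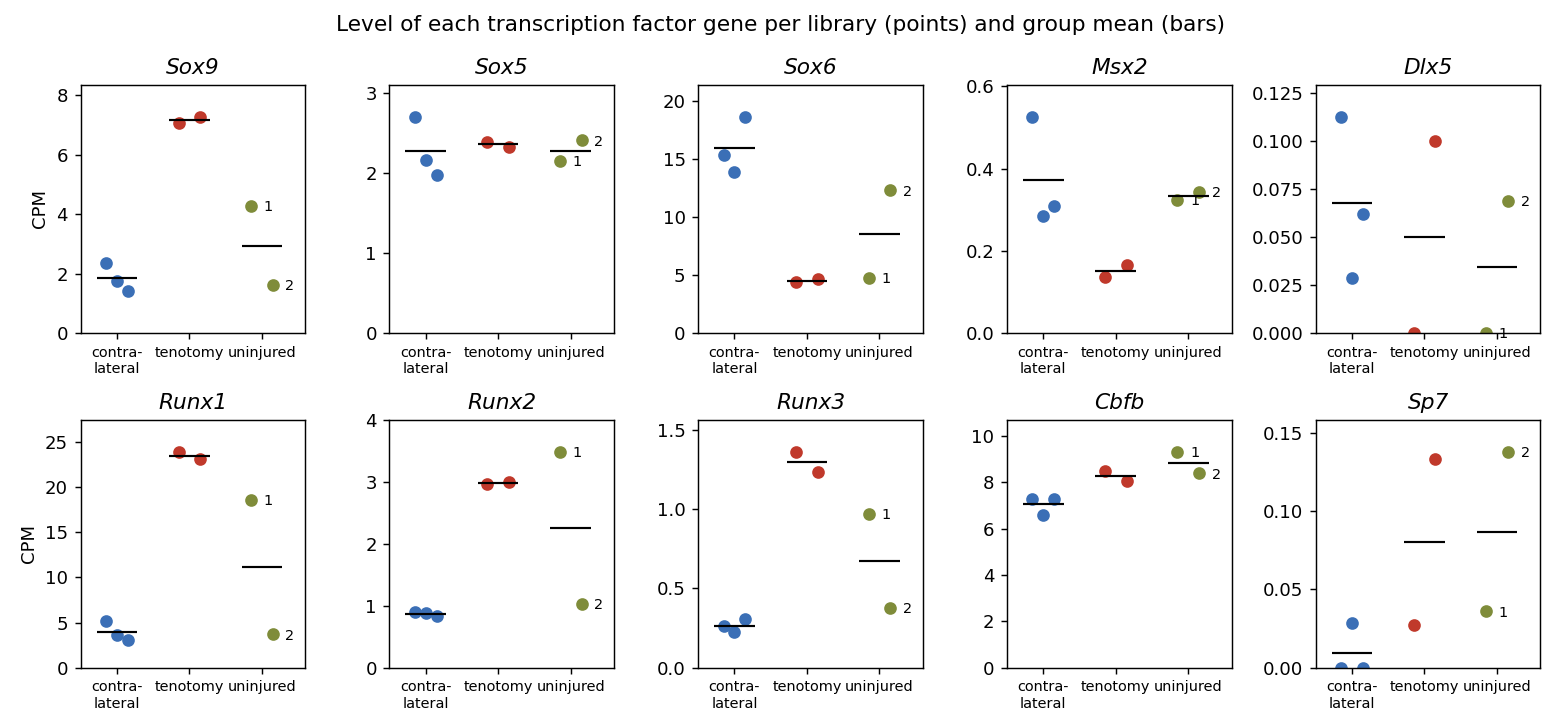
Level of each gene in CPM (vertical axes, linear and starting at 0, a separate scale for each gene) in the contralateral (n = 3), tenotomy (n = 2) and uninjured (n = 2) groups; points are libraries, bars are group means, and the digits mark uninjured replicates 1 and 2. The tenotomy libraries sit close together for Sox9, Sox6 and the Runx genes, whereas the uninjured replicates lie far apart, with replicate 1 between the groups for Sox9 and nearer the tenotomy values for Sox6 and the Runx genes (Runx1 at 18.6 against 3.72 CPM in replicate 2).

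Runx1 (ENSMUSG00000022952.17, chr16:92601466-92826149, minus strand) showed the largest rise among these genes. It was at 5.17, 3.64 and 3.03 CPM in contralateral libraries, 23.9 and 23.1 at the tenotomy site, and 18.6 and 3.72 in uninjured replicates 1 and 2. Both tenotomy libraries exceeded all others, and uninjured replicate 2 lay inside the contralateral range. The rise was 5.96-fold (log2 fold change 2.57, SE 0.56, edgeR adjusted p = 0.0181), and tenotomy replicate 1 differed by 2.61 in log2 CPM within the shared title series. The antisense gene Gm26626 shares 106 exon bases with Runx1 and had at most 27 counts, against up to 877 for Runx1.

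Runx3 (ENSMUSG00000070691.10, chr4:135120652-135177990, plus strand) was the lowest of the 3 Runx genes in CPM. It was at 0.262, 0.228 and 0.309 CPM in contralateral libraries, 1.36 and 1.23 at the tenotomy site, and 0.970 and 0.379 in the uninjured libraries. Contralateral values rested on 7 to 10 counts and tenotomy values on 37 and 50. The rise was 4.83-fold (log2 fold change 2.27, SE 0.39, edgeR adjusted p = 0.0167), with a difference of 2.11 in log2 CPM for tenotomy replicate 1 within the shared series. Fitted on length-scaled TPM, 3 of the 10 genes were called, beside 19.6% of all features, and Runx3 was not among them (edgeR adjusted p = 0.165, log2 fold change 1.46).

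Runx2 (ENSMUSG00000039153.16, chr17:44495987-44814797, minus strand) was at 0.899, 0.882 and 0.835 CPM in contralateral libraries, 2.96 and 3.00 at the tenotomy site, and 3.49 and 1.03 in uninjured replicates 1 and 2. Here uninjured replicate 1 exceeded both tenotomy libraries. The rise over contralateral tendon was 3.41-fold (log2 fold change 1.77, SE 0.43, edgeR adjusted p = 0.0225), and 1.69 in log2 CPM for tenotomy replicate 1 within the shared series. It rested on 24 to 31 counts against 90 and 109. With length-scaled TPM the edgeR adjusted p was 0.0762 at a log2 fold change of 1.77. The antisense gene Runx2os1 shares 519 exon bases with Runx2 and had at most 6 counts.

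Cbfb (ENSMUSG00000031885.14, chr8:105170674-105217989, plus strand), the partner of all 3, changed far less. It was at 7.27, 6.60 and 7.27 CPM in contralateral, 8.49 and 8.07 in tenotomy, and 9.31 and 8.40 in uninjured libraries. The tenotomy libraries lay above the contralateral libraries and overlapped the uninjured ones. Its log2 fold change of 0.23 (SE 0.13) did not pass (edgeR adjusted p = 0.227), and with length-scaled TPM it was -0.071.

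RUNX1 and RUNX3 act in white blood cells, and genes of macrophages and other myeloid cells moved with the Runx genes. Against 13.6% and 15.4% of all features, 11 of 12 listed macrophage and myeloid genes were called higher at the tenotomy site and none lower. Their summed level was 33.0 to 41.7 CPM in contralateral, 144.1 to 147.8 in tenotomy, 145.8 in uninjured replicate 1 and 42.3 in uninjured replicate 2, with no listed gene at 0 in any group. Lymphocyte and natural killer genes were near the detection limit. Of 12, 4 were tested and 1 was called higher, beside 13.6% of all features. The summed level of the 12 was 1.57 to 2.25 CPM in contralateral, 3.94 to 4.23 in tenotomy and 2.65 to 6.40 in uninjured libraries. Among the natural killer genes, Ncr1 was at 0 in all contralateral libraries. The part of these cells in the rises of Runx1 and Runx3 was not tested.

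**Figure D2:**
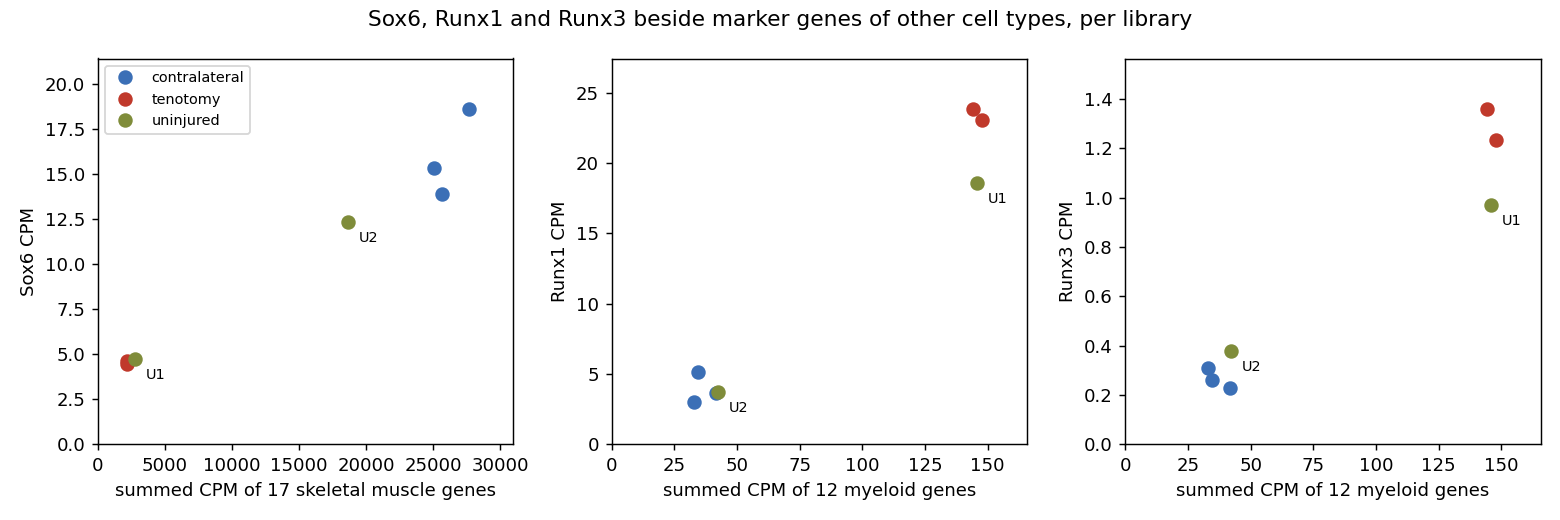
Level of Sox6, Runx1 and Runx3 in CPM (vertical axes) against the summed CPM of 17 skeletal muscle genes or 12 macrophage and myeloid genes (horizontal axes), both linear from 0; each point is a library, coloured by group, with U1 and U2 marking uninjured replicates 1 and 2. The libraries form separate clusters, with uninjured replicate 1 beside the tenotomy libraries and uninjured replicate 2 beside or near the contralateral ones.

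The factors of the osteoblast and of BMP response were scarce. Sp7 (ENSMUSG00000060284.7, chr15:102356606-102367182, minus strand) had 0, 1 and 0 counts in contralateral, 1 and 4 in tenotomy, and 1 and 4 in uninjured libraries. Dlx5 (ENSMUSG00000029755.10, chr6:6877805-6882085, minus strand) had 3, 1 and 2 counts in contralateral, 0 and 3 in tenotomy, and 0 and 2 in uninjured libraries. Neither gene passed the filter, and no difference was detectable at this depth. In contralateral replicate 1 the 0 counts of Sp7 allow up to 3 counts, or 0.112 CPM, a limit that covers counting error only. Msx2 (ENSMUSG00000021469.9, chr13:53466884-53473074, minus strand) was at 0.525, 0.285 and 0.309 CPM in contralateral, 0.136 and 0.167 in tenotomy, and 0.323 and 0.344 in uninjured libraries. Both tenotomy libraries, with 5 counts each, lay below the 10 to 14 counts of the contralateral libraries. The log2 fold change of -1.26 (SE 0.47) did not pass (edgeR adjusted p = 0.0775).

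Genes on which the SOX trio is known to act were counted from a list of 20 genes of the cartilage matrix and its cells. Of these, 17 were tested, 14 were called higher and 1 lower, against 13.6% and 15.4% of all features. Their median log2 fold change was 4.19, that of all features -0.0012. At least Scrg1, Cnmd, Ucma, Col9a1, Col9a2 and Col9a3 would not have passed the filter on low counts without the tenotomy libraries, where they were high. For such genes a rise was a condition of being tested, so the count called higher and the median were in part fixed in advance. Col2a1 and Acan, encoding collagen II and aggrecan, and Col9a2, encoding a chain of collagen IX, rose most. Col9a2 went from 0.0750, 0.0285 and 0.0618 CPM in contralateral to 3.51 and 3.27 in tenotomy libraries, with 0.575 and 0.138 in uninjured ones, the contralateral values being 1 or 2 counts. The exception was Chad, encoding chondroadherin, a leucine-rich protein of cartilage matrix, which was at 74.2, 49.7 and 33.5 CPM in contralateral, 5.63 and 5.97 in tenotomy, and 11.03 and 59.6 in uninjured libraries (log2 fold change -3.18, SE 0.72, edgeR adjusted p = 0.0192). Matn1, Snorc and Mia never exceeded 9 counts and were not tested.

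Genes known to follow RUNX2 in bone and in maturing cartilage were counted from a list of 20. Of these, 11 were tested, 2 were called higher and 3 lower, against 13.6% and 15.4% of all features, and 6 did not pass. Mmp13, encoding a collagenase of maturing cartilage and bone, had 0, 1 and 3 counts in contralateral libraries against 1111 and 933 at the tenotomy site, with 641 in uninjured replicate 1 and 2 in replicate 2. It would not have passed the filter without the tenotomy libraries. Col1a1, a chain of collagen I, was the other gene called higher (log2 fold change 2.55, SE 0.25, edgeR adjusted p = 0.0152). Ibsp, encoding bone sialoprotein, was called lower, with 224, 203 and 130 counts in contralateral, 3 and 3 in tenotomy, and 17 and 69 in uninjured libraries. Alpl, encoding the phosphatase of mineralising cells, and Vegfa, an angiogenic growth factor, fell as well (log2 fold changes -1.73 and -1.61). Col10a1, the collagen of hypertrophic cartilage, did not pass (log2 fold change -0.17, SE 0.44, edgeR adjusted p = 0.803). The osteocalcin genes Bglap and Bglap2 had at most 2 counts in any library. Spp1, encoding osteopontin, missed the threshold (edgeR adjusted p = 0.0525, log2 fold change 2.11).

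**Figure D3:**
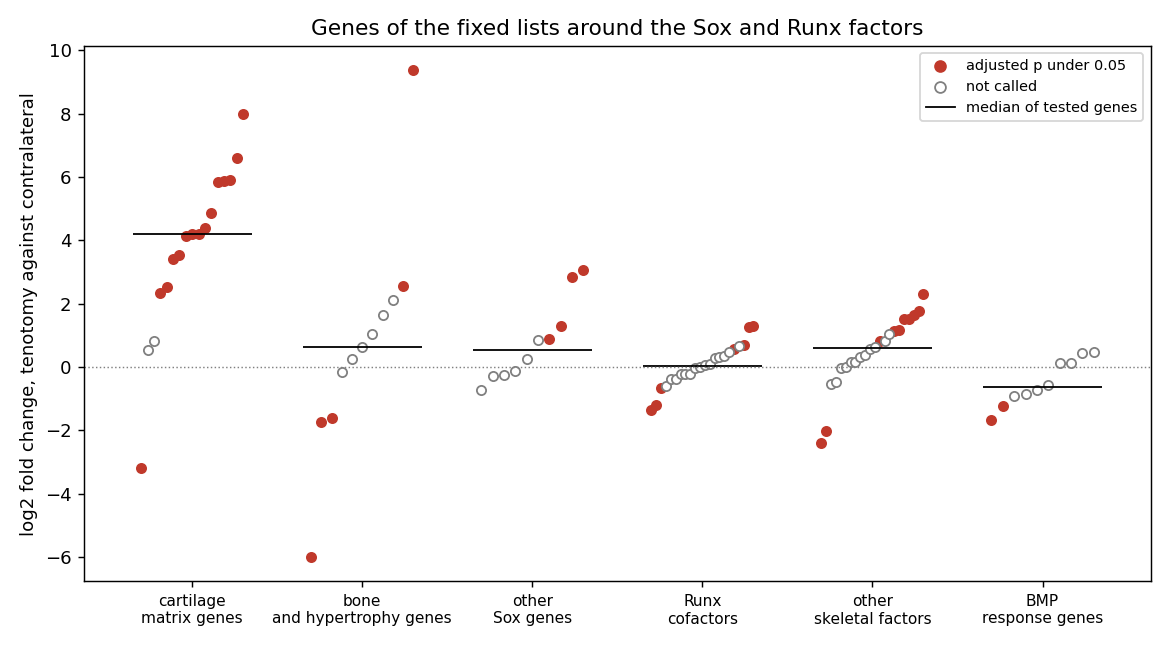
Log2 fold change of tenotomy against contralateral tendon (vertical axis) for the tested genes of 6 lists around the Sox and Runx factors; filled points passed an adjusted p-value of 0.05, open points did not, and lines are medians of the tested genes. Of the 17 cartilage matrix genes 14 lie above 0 past the threshold, while the bone and hypertrophy genes lie on both sides of it; the extreme points, Mmp13 and Ibsp, have 3 counts or fewer per library in 1 of the groups.

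Among 10 other Sox genes, all tested, 4 were called higher and none lower, against 13.6% and 15.4% of all features. Sox4, a member of the SoxC group of progenitor cells, went from 0.637, 0.768 and 0.773 CPM in contralateral to 5.09 and 5.47 in tenotomy libraries, and to 4.89 and 1.38 in the uninjured ones (log2 fold change 2.85, SE 0.46, edgeR adjusted p = 0.0167). Sox12, of the same group, rose by 1.30 on the log2 scale. Sox11, also of that group, did not pass (log2 fold change -0.25, SE 0.53, edgeR adjusted p = 0.758). Sox2, a gene of stem cells and of injured Schwann cells, was called from 0, 3 and 2 counts in contralateral against 16 and 15 in tenotomy libraries. It passed the filter only through the tenotomy libraries. Sox10, a Schwann cell factor, rose by 0.89. Of 8 Schwann cell genes, all tested, 1 was called higher and none lower, against 13.6% and 15.4% of all features. The summed level of the 8 was 149.4 to 168.4 CPM in contralateral, 104.7 to 105.8 in tenotomy, and 73.5 and 247.6 in the uninjured libraries.

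Cofactors and regulators of RUNX proteins were called at about the shares of all features (13.6% higher, 15.4% lower). All 22 on the list were tested, 4 were called higher and 3 lower, and the median log2 fold change was 0.026. Zfp521, a zinc finger repressor of RUNX2, rose from 5.77, 5.69 and 5.26 CPM to 12.9 and 13.7 (log2 fold change 1.25, SE 0.29, edgeR adjusted p = 0.0197). Twist1, whose product inhibits RUNX2, rose by 1.28, and Tle3, encoding a Groucho corepressor, by 0.70. The related corepressor genes Tle4 and Tle1 fell, with log2 fold changes of -1.37 and -0.66, as did Wwp1, a ubiquitin ligase gene, at -1.21.

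Other skeletal transcription factors were counted from a list of 31, of which 22 were tested, 8 were called higher and 2 lower, against 13.6% and 15.4% of all features. Prrx2, a limb mesenchyme homeobox gene, rose by 2.31 on the log2 scale, Gli1, a target and effector of Hedgehog signalling, by 1.75, and Osr2, a joint-forming zinc finger gene, by 1.65. Mef2c, a factor of muscle and of maturing cartilage, fell from 76.4, 79.0 and 81.2 CPM to 14.7 and 15.2, and Barx2 fell with a log2 fold change of -2.02. The muscle gene levels given beside Sox6 apply to Mef2c too. Of 11 BMP response genes, 10 were tested, none was called higher and 2 lower, namely Smad9 (log2 fold change -1.69) and Atoh8 (-1.24), beside 15.4% of all features called lower.

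Levels of different genes can be set side by side only per transcript length, for which the deposited TPM were used. TPM are low here because a few abundant RNAs take most of each library's total. In all contralateral libraries and in uninjured replicate 2 the order began with Cbfb, Sox6, Sox5, Runx1, Sox9 and Runx2. In both tenotomy libraries it began with Runx1, Cbfb, Sox9, Sox5, Runx2 and Sox6. The ratio of Sox9 to Sox6 was 0.286, 0.226 and 0.149 in contralateral, 2.66 and 2.77 in tenotomy, and 1.54 and 0.237 in the uninjured libraries, so it stood above 1 in both tenotomy libraries and uninjured replicate 1. Runx1 made up 61.4% to 72.4% of the summed TPM of the Runx genes in contralateral libraries, 83.0% and 78.1% in tenotomy libraries, and 67.3% and 67.9% in uninjured ones. Cbfb exceeded the 3 Runx genes together by 2.17 to 3.49 times in contralateral libraries. At the tenotomy site the ratio of Cbfb to the summed Runx genes was 0.508 and 0.470, and in the uninjured libraries 0.957 and 4.21. Short annotated fragments weigh heavily in TPM, and these ratios were not tested.

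Transcripts of the Runx genes were grouped by the distal or proximal promoter nearer to their annotated start. The proteins made from these promoters differ at the amino terminus. By TPM, the distal share of Runx1 was 35.3%, 32.2% and 33.5% in contralateral, 25.9% and 26.9% in tenotomy, and 32.2% and 39.1% in uninjured libraries. Both tenotomy libraries were below the rest by this measure. By estimated counts the tenotomy shares of 35.7% and 37.6% lay inside the contralateral range of 30.4% to 41.6%, so the difference depended on how transcripts were weighted. For Runx2 the replicates lay far apart: by estimated counts the distal share was 72.5% and 33.0% in the tenotomy libraries and 31.5% to 56.9% in the contralateral ones. Runx3 counts were assigned to the distal promoter at 88.0% or more in every library, but by TPM the share was 22.2% to 100% in the contralateral ones. Transcript counts are estimates of how shared reads divide.

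**Figure D4:**
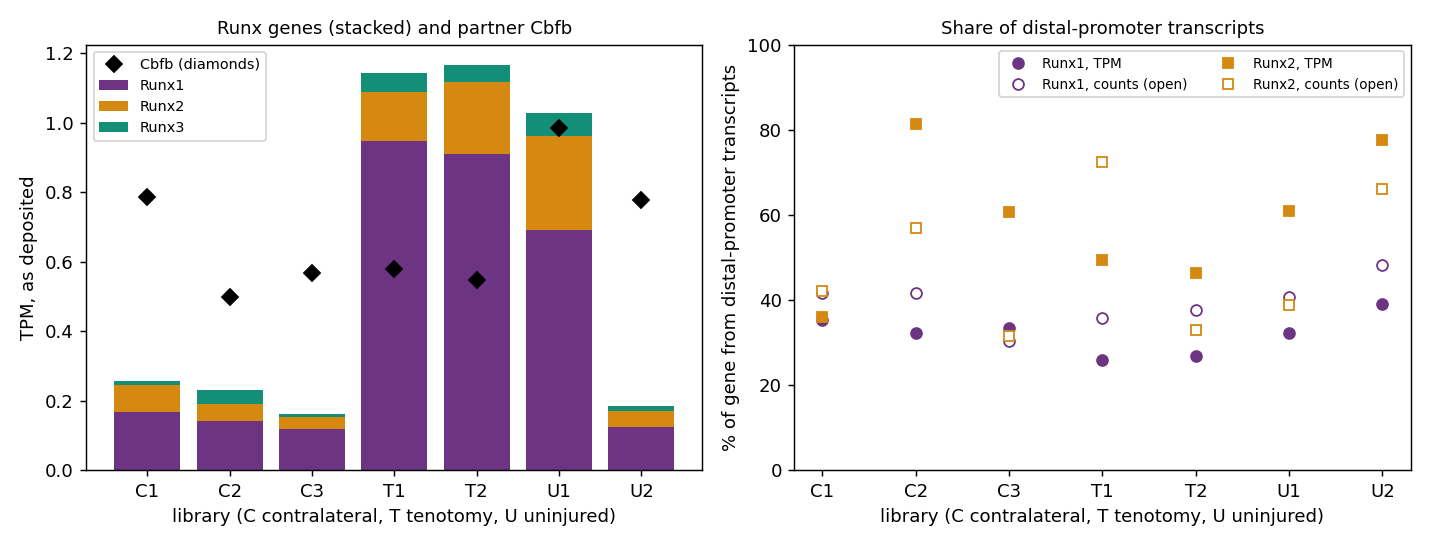
Left, deposited TPM of Runx1, Runx2 and Runx3 stacked per library, with Cbfb as diamonds; right, percent of Runx1 (circles) and Runx2 (squares) assigned to transcripts of the distal promoter, by TPM (filled) and by estimated counts (open). Summed Runx TPM exceed Cbfb in both tenotomy libraries (ratios of Cbfb to Runx 0.508 and 0.470) and the Runx2 shares scatter between replicates.

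The second comparison, tenotomy against the uninjured group, shares its tenotomy libraries with the first. None of the 10 genes was called in the edgeR fit, nor was any feature (0% of 16028), and limma-voom called none of these genes. DESeq2 called 145 features and none of these genes, but gave an adjusted p-value only to Sox6, Runx1 and Cbfb among them. At an unadjusted edgeR p-value under 0.05 there were 2 of the 10 genes, Sox9 and Runx3, beside 10.9% of all features. The log2 fold change was 1.28 for Sox9 (SE 0.40, edgeR adjusted p = 0.45), 1.07 for Runx1 (SE 0.61, 0.521), 0.95 for Runx3 (SE 0.40, 0.458), 0.41 for Runx2 (SE 0.44, 0.723) and -0.91 for Sox6 (SE 0.40, 0.463). These averages hide the spread of the uninjured pair. Against uninjured replicate 1, the library that shares its title series, tenotomy replicate 2 differed in log2 CPM by 0.76 for Sox9, 0.31 for Runx1, 0.33 for Runx3, -0.21 for Runx2 and -0.034 for Sox6, from single libraries. With uninjured replicate 1 left out, edgeR called 5 genes, Sox9, Runx1, Runx2 and Runx3 higher and Sox6 lower, beside 25.1% of all features. Their log2 fold changes were then 2.15, 2.66, 1.53, 1.77 and -1.44, and the lone uninjured library was assumed to vary like the other groups. With uninjured replicate 2 left out none was called, beside 0.0830% of all features, and Runx2 had a log2 fold change of -0.22. Col2a1 was at 126 and 125 CPM in tenotomy libraries, 16.6 in uninjured replicate 1 and 1.55 in replicate 2. Acan was at 80.7 and 86.1 CPM in tenotomy libraries, 45.9 in uninjured replicate 1 and 1.24 in replicate 2.

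The last comparison, contralateral against uninjured, sets the intact tendon of injured mice beside that of mice with no injury, and uses libraries of both earlier comparisons. None of the 10 genes and no feature (0%) was called by edgeR, and limma-voom called none of these genes. DESeq2 called 223 features and none of these genes, but gave an adjusted p-value only to Sox6, Sox9, Runx1 and Cbfb among them. At an unadjusted edgeR p-value under 0.05 there were 5 of the 10 genes, Sox6, Runx1, Runx2, Runx3 and Cbfb, beside 19.2% of all features. Log2 fold changes were 0.90 for Sox6 (SE 0.36, edgeR adjusted p = 0.244), -1.50 for Runx1 (SE 0.56, 0.233), -1.36 for Runx2 (SE 0.45, 0.221), -1.32 for Runx3 (SE 0.44, 0.222), -0.68 for Sox9 (SE 0.39, 0.346) and -0.33 for Cbfb (SE 0.13, 0.249). Without uninjured replicate 1 none of them was called, beside 0.617% of all features, and Sox9 and Runx1 had log2 fold changes of 0.17 and 0.069. Without uninjured replicate 2, 6 were called, Sox6 higher and Sox9, Runx1, Runx2, Runx3 and Cbfb lower in contralateral tendon, beside 32.0% of all features. No title series holds both contralateral and uninjured libraries, so no value within a series can be given. With the series as a covariate, linked through the tenotomy libraries and resting on uninjured replicate 1 alone for its group, edgeR called 5 of the 10 genes, beside 15.4% of all features. Their log2 fold changes were then 1.81 for Sox6, -1.19 for Sox9, -2.30 for Runx1, -1.98 for Runx2 and -1.99 for Runx3 (edgeR adjusted p 0.000781 to 0.0388).

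**Figure D5:**
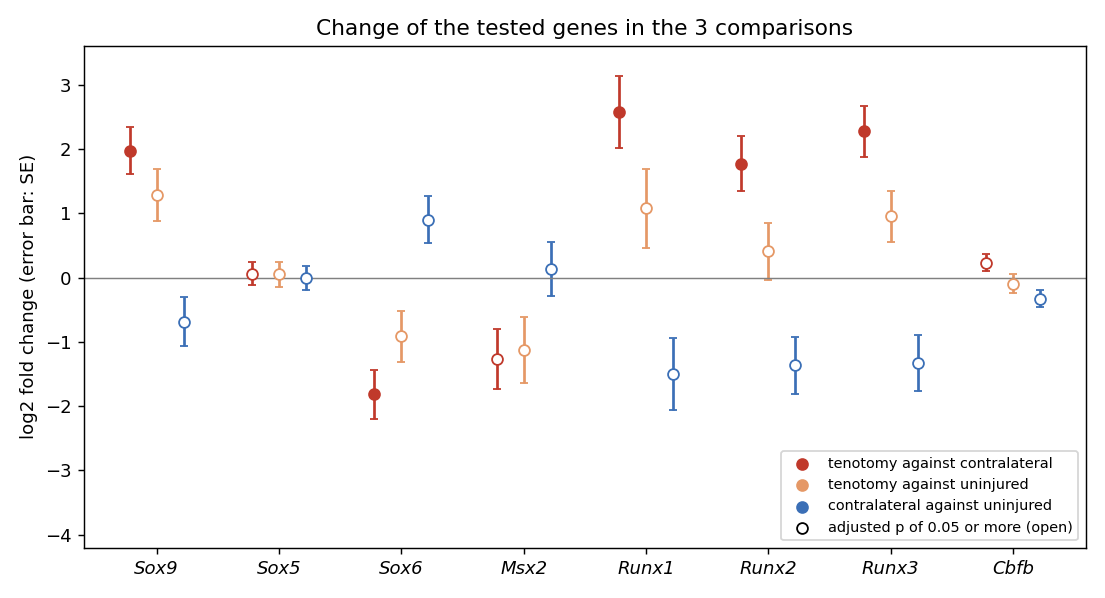
Log2 fold change (vertical axis, error bars SE of the edgeR fit of all libraries) of the 8 tested genes in the 3 comparisons, which share libraries; filled points passed an adjusted p-value of 0.05 and open points did not. Filled points appear for tenotomy against contralateral only, for Sox9 at 1.97, Sox6 at -1.81, Runx1 at 2.57, Runx2 at 1.77 and Runx3 at 2.27.

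The genes whose log2 CPM followed each of 3 factors most closely over the 7 libraries were looked up among 2018 or 2019 genes with a mean log2 CPM of at least 3. For Sox9 they were Creb3l2, Btg1 and Anxa1 (Pearson r 0.995, 0.994 and 0.986). For Runx1 they were Col12a1, Actr3 and Thbs1 (r 0.998, 0.996 and 0.996), and for Runx2 they were Zfp521, C1ra and Lyz2 (r 0.998, 0.996 and 0.995). These values only rank the genes, because the libraries form clusters and 132, 252 and 299 genes respectively had an r above 0.95. Lyz2, a gene of myeloid cells, was at 8.25, 9.85 and 7.85 CPM in contralateral, 49.7 and 53.2 in tenotomy, and 55.5 and 9.60 in the uninjured libraries, with uninjured replicate 1 highest as it was for Runx2.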

How the data were processed

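Per the file headers, each deposited table gives for every transcript an estimated count and a TPM value, with lengths. FastQC 0.11.4 and kallisto are named in the submitters' processing notes, without options. The only build named there is GRCh38, although the transcript identifiers are those of mouse. No scaling was applied to the deposited estimated counts. Deposited TPM are relative to effective length and library total.

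Of 103639 transcripts, 101510 matched GENCODE M21 (GRCm38) without version, 57625 with the same version. Estimated counts were summed per gene and rounded, giving 44818 features. The edgeR 4.0.16 filter (filterByExpr, minimum count 10, here 0.314 CPM in at least 2 libraries) kept 16028. Counts were scaled by TMM and fitted with edgeR's quasi-likelihood test (R 4.3.3), 3 group means and no covariate. SE is the log2 fold change over the square root of F. CPM use the TMM-scaled totals, and log2 CPM a prior count of 2. The scripts were tested on simulated counts. Alternatives included DESeq2 1.42.0 and limma-voom 3.58.1. Groups follow the condition label, and replicate numbers the accession order.

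Genes, lists and alternatives were chosen with earlier results of these data known. All 10 genes are reported; from each list around them, the 3 largest rises and falls among genes called against contralateral tendon are named, and other list genes were named after their values were seen, as were the libraries left out. Library pairs of a group differed by more than sampling noise, and the uninjured pair by far the most. Divided by its degrees of freedom, chi-square came to 4.83 between tenotomy libraries, 8.05 to 13.1 between contralateral and 95.5 between uninjured libraries. Each library counted as 1 sample, but this spread does not show that the libraries came from separate mice. The preparation is not stated to keep strand, so reads of antisense partners cannot be told apart where exons overlap. Results for single marker genes of lymphocytes and Schwann cells are in part not reported here.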

Additional observations from a re-analysis of the deposited data

How the results depend on the processing

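Tenotomy against contralateral gave 4643 called features, 7385 when only these groups were fitted, and 0 to 7336 when a library was left out. It gave 5 called members of the set of 10 genes, 3 with length-scaled TPM, and 0 to 5 with a library left out. Against uninjured, tenotomy gave 0 features, but 145 with DESeq2, 15 with no filter, 4 with the title series as covariate, and 0 to 4275 with a library left out (0 to 5 of the 10 genes). Contralateral against uninjured gave 0, but 223 with DESeq2, 337 with no filter, 2466 with the series covariate (5 of the 10 genes), and 0 to 5393 with a library left out (0 to 6 genes). The series covariate leaves uninjured replicate 1 alone to stand for its group.

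Some log2 fold changes changed sign. Cbfb against contralateral was -0.071 with length-scaled TPM. Runx2 of tenotomy against uninjured was -0.22 with the series covariate and -0.22 to 1.53 with a library left out. Sox5 ranged from -0.034 to 0.19, -0.022 to 0.14 and -0.14 to 0.084 with a library left out in the 3 comparisons. In the last it was 0.0035 with no filter, 0.14 with length-scaled TPM and 0.034 with the covariate. With a library left out, contralateral against uninjured ranged from -1.23 to 0.17 for Sox9 (-0.68 with all libraries), -2.25 to 0.069 for Runx1 (-1.50 with all) and -0.16 to 0.30 for Msx2, the positive Sox9 and Runx1 values being those without uninjured replicate 1.

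The distal share of Runx1 by TPM averaged 33.7%, 26.4% and 35.6% in contralateral, tenotomy and uninjured libraries. By estimated counts it was 37.9%, 36.6% and 44.4%, and over protein-coding transcripts 38.6%, 31.0% and 41.4%. For Runx2 it was 59.3%, 47.9% and 69.2% by TPM, 43.5%, 52.7% and 52.4% by counts, which turned the order of contralateral and tenotomy, and 35.8%, 36.4% and 49.7% over protein-coding transcripts. The cause of these differences was not tested. No paired analysis was possible because replicate numbers only follow accession order and no label ties libraries to a mouse. Depth limits Sp7, Dlx5, Msx2 and Runx3 most, at 50 counts or fewer per library.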

Other observations

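The split of Sox6 counts between its annotated transcripts differed widely inside a group. Sox6-204 held 35.8, 6.61 and 137.0 estimated counts in the contralateral libraries, and Sox6-201 held 33.3 and 91.6 in the tenotomy libraries and 0 and 81.3 in the uninjured ones. Sox6-202, the transcript with the most counts in all contralateral libraries (252.9, 292.1 and 256.3), held 60.5 and 21.3 at the tenotomy site. Sox9 has a single annotated transcript, so its level involves no such split.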
